A study of Mus musculus with 8 samples.

Results

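The genes that encode the subunits of glutamate, GABA and glycine receptors were followed through retinoic acid differentiation of mouse embryonic stem cells (ESC) with and without huntingtin. They were taken by gene symbol from the RNA-seq count table: every protein-coding gene named as an AMPA (Gria), kainate (Grik), delta (Grid), NMDA (Grin) or metabotropic (Grm) glutamate receptor, as a GABA-A receptor subunit (Gabr) or as a glycine receptor subunit (Glra, Glrb). The rule found 50 genes among 32567 in the table, 19027 of which are protein-coding.

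Glutamate is the main excitatory and GABA and glycine are the main inhibitory transmitters of the central nervous system. AMPA, kainate and NMDA receptors are cation channels built from subunits of their own family, GABA-A and glycine receptors are chloride channels, and the metabotropic glutamate receptors signal through G proteins. The subunits that a neuron expresses set the kinetics, ion permeability and placement of its receptors, and several are exchanged as the nervous system matures.

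The study sequenced poly(A) RNA of a wild-type ESC line and of a line homozygous for Hdh ex4/5, a targeted null allele of the mouse huntingtin gene Htt. Each line was taken as ESC, after 4 passages without feeder cells, and as RA-DIFF cells, which were grown as embryoid bodies for 8 days with 5 uM retinoic acid (RA) from day 4, dissociated, and collected 2 hours after plating. There was 1 library per condition and 1 line per genotype, so no difference below has a replicate check, and the genotype cannot be told apart from other differences between the lines. The small RNA libraries of the same series hold no receptor gene and were not used here.

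The 4 libraries held 87924678 (ESC wild type), 63617410 (ESC Htt-null), 110569127 (RA-DIFF labelled wild type) and 100927951 (RA-DIFF labelled Htt-null) counted read pairs. Levels are given as CPM, read counts scaled to a common library size. Htt was at 166 CPM in wild-type and 111 CPM in Htt-null ESC, but at 73.3 CPM in the wild-type-labelled RA-DIFF library and 98.7 CPM in the one labelled Htt-null. The count covers the whole gene, including what lies outside the targeted exons. The genotype log2 ratio of Htt (Htt-null over wild type) was thus -0.58 in ESC but 0.43 in RA-DIFF, against its label. Htt was not alone in this: the median genotype ratio of 816 expressed genes on chromosome 8 was 0.36 in ESC and -0.22 in RA-DIFF by the labels. On chromosome 11, also offset in ESC, it was 0.22 and 0.01. Which label each RA-DIFF library should carry was not settled here. The RA-DIFF libraries are therefore called by their labels throughout, and each RA-DIFF genotype difference turns its sign, and each RA response by line changes, if the labels were exchanged. Of 8 pluripotency markers, the summed level was 5425 and 4638 CPM in ESC and 55.6 and 13.4 CPM in RA-DIFF, and that of 12 neuron markers was 295 and 335 CPM in ESC and 3022 and 1393 CPM in RA-DIFF (wild type, Htt-null; none of either list was at 0).

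Below, pairs of values give the wild-type library first and the Htt-null library second. CPM are scaled by TMM factors and compare libraries for 1 gene. Levels of different genes are compared per length, as CPM divided by the exonic length in kilobases (RPKM). Ratios are on the log2 scale, and their 95% intervals cover counting error only, not the spread between cultures. A gene was called when an exact test between 2 libraries with an assumed dispersion of 0.01 gave a p under 0.05, the log2 ratio was beyond 0.75 in size and its average log2 CPM was above 0. The p is not printed, because it rests on an assumed spread. Of the 50 subunit genes, 36 passed the limit on average expression, and 15492 genes of the table were tested.

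Wild-type and Htt-null ESC expressed few of the receptor genes. The median level of the 50 genes was 0.231 and 0.261 CPM, 14 and 15 genes reached 1 CPM, and 8 and 7 genes had no read. A count of 0 allows up to 3 reads, or 0.0346 CPM in wild-type and 0.046 CPM in Htt-null ESC. Grik3 and Grik5 led both libraries per length. Grik3, a kainate receptor subunit on the plus strand of chromosome 4 (ENSMUSG00000001985, chr4:125490700-125714173), stood at 10.5 and 6.83 RPKM. Grik5, a kainate subunit that forms channels only together with Grik1, Grik2 or Grik3, was at 5.17 and 4.80 RPKM. Gabrp, known mainly from epithelia outside the nervous system, was at 1.95 and 2.33 RPKM. Kainate receptor genes made up 65.2% and 55.1% of the summed RPKM of all 50 genes in ESC, and the GABA-A genes 21.9% and 28.2%.

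**Figure D1:**
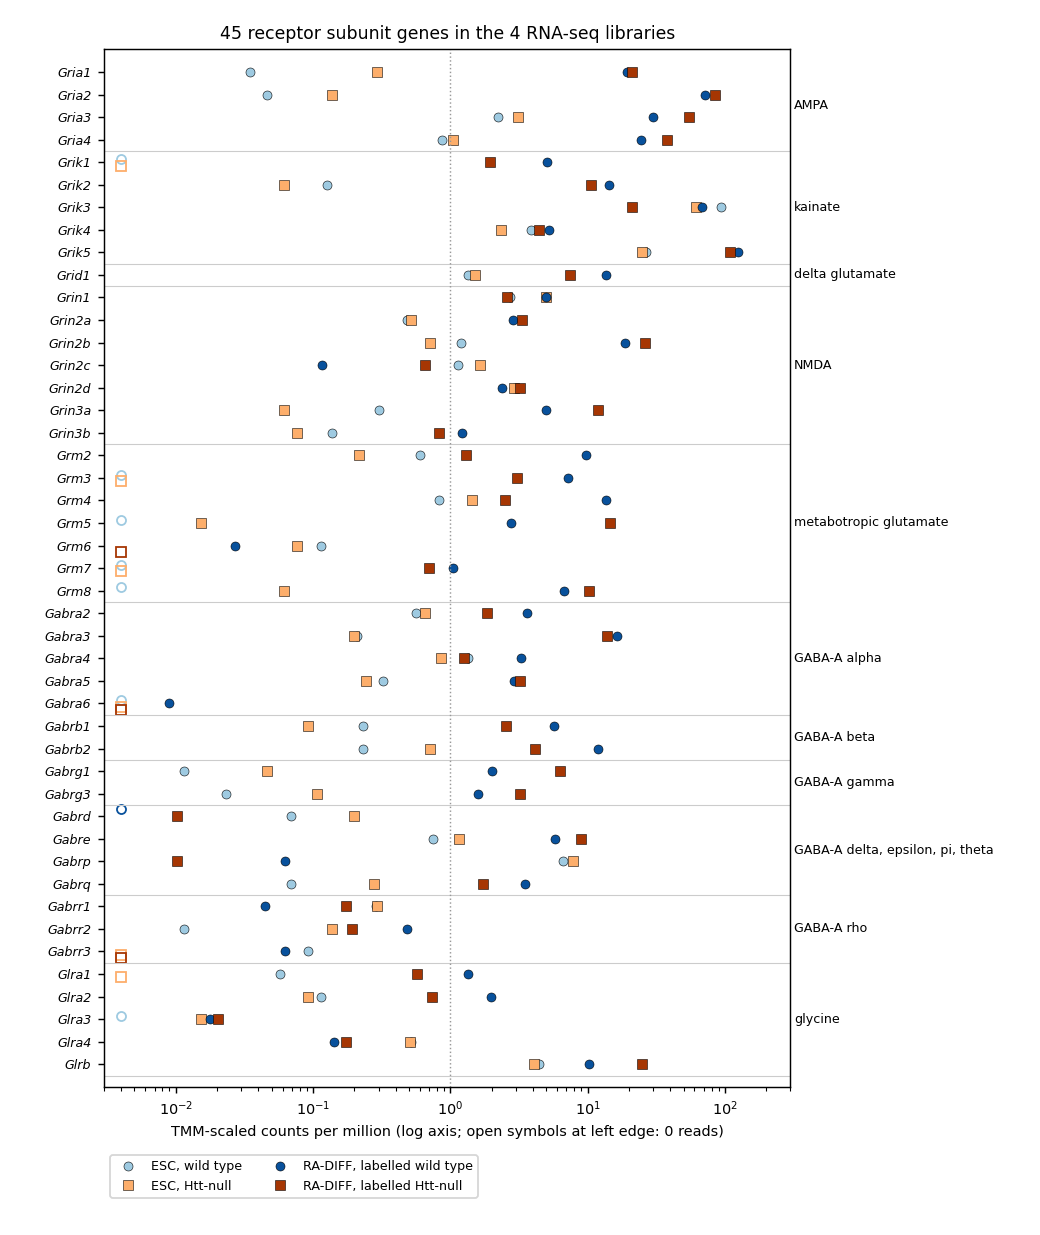
Level of 45 of the 50 receptor subunit genes in the 4 RNA-seq libraries, in TMM-scaled CPM on a log axis, grouped by family; circles are libraries labelled wild type, squares libraries labelled Htt-null, light colours ESC, dark colours RA-DIFF, and open symbols at the left edge genes with 0 reads. Of all 50 genes, 14 and 15 were at or above 1 CPM (dotted line) in ESC and 40 and 35 in RA-DIFF.

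The promoters of Grik3 and Gabrp are shown because they held the most and the fewest CpG dinucleotides among the 8 subunit genes with a promoter window and at least 1 CPM in both ESC libraries. RefSeq start sites on GRCm38.p6 were found for 34 of the 50 genes, with windows from 250 bases before to 50 after the start. The Grik3 window (chr4:125490446-125490745, plus strand) held 50 CpG dinucleotides, the most among the 34 genes, and the Gabrp window (chr11:33578908-33579207, minus strand) held 4. Each is printed 5′ to 3′ on the strand of the gene, with CpG in capitals.
Grik3: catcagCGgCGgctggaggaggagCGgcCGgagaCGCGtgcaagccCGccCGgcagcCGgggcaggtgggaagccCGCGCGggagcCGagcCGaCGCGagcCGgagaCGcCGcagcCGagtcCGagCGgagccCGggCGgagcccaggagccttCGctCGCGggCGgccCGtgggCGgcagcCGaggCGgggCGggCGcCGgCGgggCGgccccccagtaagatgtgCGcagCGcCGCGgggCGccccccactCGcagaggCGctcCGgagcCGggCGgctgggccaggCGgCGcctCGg
Gabrp: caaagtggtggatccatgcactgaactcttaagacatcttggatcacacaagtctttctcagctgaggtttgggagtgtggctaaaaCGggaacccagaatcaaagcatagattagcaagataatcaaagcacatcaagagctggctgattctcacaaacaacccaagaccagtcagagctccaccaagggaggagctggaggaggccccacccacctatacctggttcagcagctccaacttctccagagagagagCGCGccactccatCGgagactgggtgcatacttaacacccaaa
The 8 genes at or above 1 CPM in both ESC libraries had a median of 26 CpG (4 to 50) in their window and the other 26 genes a median of 11.5 (0 to 33), against 8 over all 27025 symbols, each taken at its most CpG-rich window. The symbols were not filtered by gene type, whereas the subunit genes are all protein-coding, so the sets are unlike. The CpG counts are a description of the windows, and methylation was not measured.

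With RA differentiation most of the receptor genes rose in both lines. In the libraries labelled wild type 32 of the 36 genes tested were called higher in RA-DIFF than in ESC and 1 was called lower (88.9% and 2.78%, against a background of 34.0% and 26.2% of all genes tested). In those labelled Htt-null 30 were called higher and 4 lower (83.3% and 11.1%, against 34.4% and 24.8%). With a dispersion of 0.1 the calls were 29 and 1 (against 23.8% and 17.3% of all genes) and 28 and 2 (against 24.0% and 15.9%), and those lost included Gabra4 and Glrb in the first pair of libraries, Grik4 and Grm4 in the second and Grin1 in both. A gene that is silent in ESC passes the expression limit only through its RA-DIFF reads, so these counts describe the genes that passed and not all 50. Over the genes with more than 3 reads in either library, the median log2 ratio was 3.99 (48 genes) and 2.68 (47 genes), beside 0.06 and 0.13 over protein-coding genes. The number at or above 1 CPM reached 40 and 35, and the summed level of the 50 genes went from 25.1 and 21.8 RPKM in ESC to 86.2 and 77.4 RPKM in RA-DIFF.

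**Figure D2:**
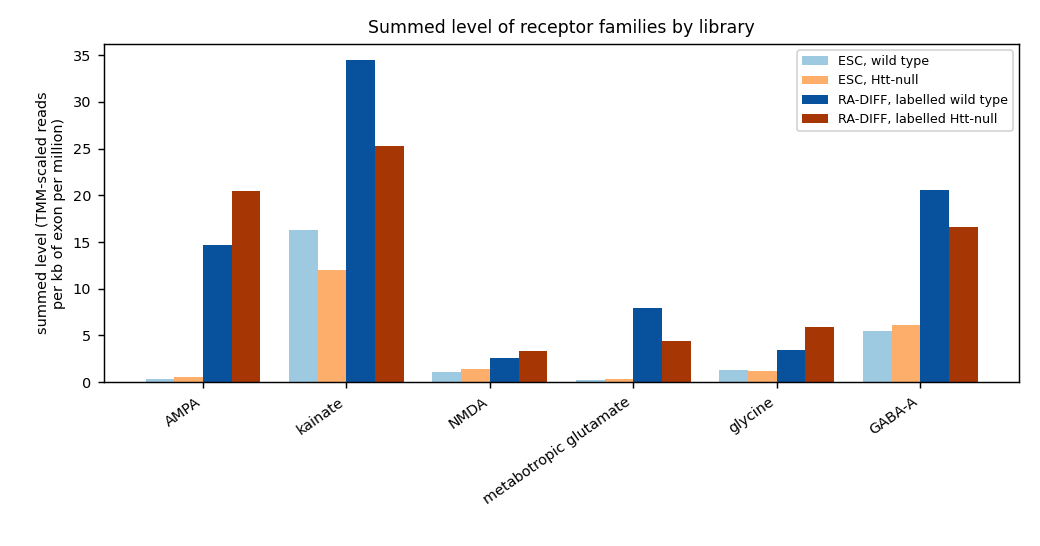
Summed level of 6 receptor families in the 4 libraries, in TMM-scaled RPKM; bars are single libraries and carry no error. The kainate family was highest in all 4 libraries (16.3 and 12 in ESC, 34.5 and 25.3 in RA-DIFF), whereas AMPA genes went from 0.373 and 0.54 in ESC to 14.7 and 20.5 in RA-DIFF.

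The AMPA receptor genes, which encode the channels of fast excitation, rose in both lines and all 4 were called. Gria2, whose edited subunit makes the channel impermeable to calcium, was at 0.0461 and 0.138 CPM in ESC (4 and 9 reads) and at 71.5 and 85 CPM in RA-DIFF. Gria1 was at 0.0346 and 0.291 CPM in ESC (3 and 19 reads) and at 19.5 and 21.2 CPM in RA-DIFF. These log2 ratios were 10.56 (9.24 to 12.47) and 9.25 (8.34 to 10.40) for Gria2 and 9.09 (7.59 to 11.42) and 6.17 (5.54 to 6.92) for Gria1. Gria3 was at 2.24 and 3.13 CPM and Gria4 at 0.865 and 1.04 CPM in ESC, and their log2 ratios lay between 3.73 and 5.18. In RA-DIFF the 4 genes were close to one another per length, from 3.01 to 4.60 RPKM in the library labelled wild type and from 3.50 to 6.01 RPKM in the one labelled Htt-null.

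Within RA-DIFF, 11.5% of all genes tested were called higher and 8.48% lower by the labels, and 1 and 0 of the 4 AMPA genes were. Of the receptor calls in RA-DIFF, those of Gria3, Grid1, Grin1, Grin3a, Grm3, Gabra2, Gabrb1, Gabrg3, Gabrq and Glrb did not hold with a dispersion of 0.1. The AMPA genes were level or higher in the library labelled Htt-null. Gria3 was at 29.7 and 54.5 CPM and was called, with a log2 ratio of 0.88 (0.81 to 0.94). Gria4 was at 24.4 and 37.9 CPM, with a ratio of 0.64 (0.56 to 0.71) that did not reach the limit. The ratios of Gria2 and Gria1 were 0.25 and 0.12. The family's share of all receptor RPKM was 17.1% in the library labelled wild type and 26.5% in the one labelled Htt-null.

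Of 12 genes listed for the auxiliary subunits of AMPA receptors, 10 passed the expression limit. Of these, 2 were called higher and 6 were called lower in the Htt-null-labelled RA-DIFF library, where 11.5% and 8.48% of all genes tested were. The median ratio of the list was -1.08, beside 0.01 over protein-coding genes. The difference from the channel genes was not tested. The TARP genes Cacng2 and Cacng4, which carry AMPA receptors to the membrane, were lower: Cacng2 had 1244 and 191 reads (log2 ratio -2.52) and Cacng4 21591 and 7878 reads (-1.27). Gsg1l had 1886 and 251 reads (-2.72), Cnih2 4401 and 1887 reads (-1.04), and Shisa7 3386 and 1477 reads (-1.01). The called increases were both in the Shisa family, Shisa9 with 483 and 2001 reads (2.24) and Shisa6 with 1839 and 3209 reads (0.99).

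The kainate genes split by their RA response. Grik1 had no read in ESC and was at 5.10 and 1.94 CPM in RA-DIFF, at least 148-fold and 42.2-fold higher. Grik2 went from 0.127 and 0.0613 CPM to 14.3 and 10.6 CPM. Grik5 went from 26.7 and 24.8 CPM to 125 and 109 CPM and led all 50 genes per length in both RA-DIFF libraries (24.2 and 21.1 RPKM). Grik3 instead had its highest level in ESC, at 94.4 and 61.3 CPM, and was at 67.7 and 21.1 CPM in RA-DIFF. Its log2 ratio of RA-DIFF over ESC was -0.48 (-0.52 to -0.43) in the libraries labelled wild type, which was not called, and -1.54 (-1.62 to -1.46) in those labelled Htt-null, which was called lower.

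Kainate genes were called lower, or were not called, in the Htt-null-labelled RA-DIFF library. Grik3 was lower by -1.68 (-1.75 to -1.61) and Grik1 by -1.40 (-1.64 to -1.16) on the log2 scale. Grik2 (-0.43), Grik4 (-0.24) and Grik5 (-0.20) were not called. Grik3 was second of the 50 genes per length in the library labelled wild type (7.55 RPKM) and ninth in the one labelled Htt-null (2.35 RPKM). Its ratio in ESC had the same sign (-0.62, -0.68 to -0.57) and was not called. Neither of the kainate auxiliary genes Neto1 and Neto2 was called in RA-DIFF (0.68 and 0.30).

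Grid1 encodes a delta receptor, which binds cerebellins released from presynaptic terminals rather than glutamate. It rose with RA in both lines, from 1.34 and 1.52 CPM in ESC. In RA-DIFF Grid1 was at 13.7 and 7.5 CPM, called lower at -0.87 (-1.0 to -0.74). The ligand genes were called lower in the same library, 3 of 3, where 8.48% of all genes tested were. Cbln1 had 19690 and 5019 reads (-1.79), and the ratios of Cbln2 and Cbln4 were -2.30 and -1.10.

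NMDA receptors need the Grin1 subunit, which combines with Grin2 and Grin3 subunits. Grin1 was at 2.70 and 5.01 CPM in ESC and at 4.97 and 2.57 CPM in RA-DIFF, so the order of the libraries was, by their labels, opposite at the stages. It was called in all 4 comparisons: log2 0.89 (0.65 to 1.14) for genotype in ESC, -0.95 (-1.17 to -0.74) for genotype in RA-DIFF, 0.88 (0.66 to 1.11) with RA in the libraries labelled wild type and -0.96 (-1.21 to -0.72) in those labelled Htt-null. None of these calls held with a dispersion of 0.1. With the RA-DIFF labels exchanged the genotype ratio in RA-DIFF was 0.95 and the RA ratios were -0.07 for wild-type and -0.01 for Htt-null ESC. The antisense gene Grin1os overlaps 13.5% of the exonic length of Grin1 and had at most 55 reads in a library.

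Grin2b, the Grin2 subunit that prevails before birth, was at 18.7 and 26.2 CPM in RA-DIFF and was the most abundant Grin gene there per length (0.752 and 1.05 RPKM). It rose by 3.97 and 5.21 with RA. Grin3a, also an early subunit, was at 0.300 and 0.0613 CPM in ESC (26 and 4 reads) and at 4.96 and 11.9 CPM in RA-DIFF. It was called lower in Htt-null ESC (-2.26, -4.27 to -0.76) and higher in the Htt-null-labelled RA-DIFF library (1.26, 1.11 to 1.41). Grin2d, expressed early in the brainstem and midbrain, stayed between 2.36 and 3.20 CPM in the 4 libraries and was not called in any comparison. Grin2a was at 2.86 and 3.34 CPM in RA-DIFF, with a genotype ratio of 0.23. Grin2c and Grin3b were below the expression limit. Grin3b shares 32.1% of its exonic length with Tmem259 on the other strand, which had 4675 to 8925 reads where Grin3b had 5 to 137.

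Most metabotropic receptor genes had few or no reads in ESC. Grm3, Grm5, Grm7 and Grm8 had 0 to 4 reads in each ESC library. In the wild-type-labelled RA-DIFF library Grm3 was at least 208-fold, Grm8 at least 195-fold and Grm5 at least 80.5-fold above ESC. Grm6, known from retinal bipolar cells, had no more than 10 reads in any library. The family held 1.13% and 1.41% of receptor RPKM in ESC and 9.19% and 5.66% in RA-DIFF.

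This family had the largest genotype differences of the 36 genes in RA-DIFF in both directions. Grm2 (ENSMUSG00000023192, chr9:106643095-106656082, minus strand) was at 9.71 and 1.31 CPM, lower by -2.89 (-3.16 to -2.63). Grm4 was at 13.5 and 2.52 CPM (-2.43, -2.63 to -2.23), and Grm3 at 7.19 and 3.05 CPM (-1.24, -1.44 to -1.05). These receptors couple to Gi and lower cyclic AMP, Grm2 and Grm4 largely at presynaptic terminals. Grm5, a Gq-coupled receptor also found in neural progenitors and astrocytes, was at 2.78 and 14.6 CPM, higher by 2.39 (2.22 to 2.58). Grm8, of the same group as Grm4, was at 6.75 and 10.3 CPM and was not called (0.61). In ESC, Grm2 was lower in the Htt-null library (52 and 14 reads, -1.48, -2.45 to -0.61) and Grm4 higher (72 and 94 reads, 0.79, 0.34 to 1.26).

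The Grm2 promoter is shown because it held the letters of both the left and the right part of RE1, the element bound by the neuronal repressor REST, in the gene with the largest difference. Its window (RefSeq, GRCm38.p6, chr9:106656060-106656359, minus strand) is printed 5′ to 3′ on the strand of the gene with these parts in capitals.
Grm2: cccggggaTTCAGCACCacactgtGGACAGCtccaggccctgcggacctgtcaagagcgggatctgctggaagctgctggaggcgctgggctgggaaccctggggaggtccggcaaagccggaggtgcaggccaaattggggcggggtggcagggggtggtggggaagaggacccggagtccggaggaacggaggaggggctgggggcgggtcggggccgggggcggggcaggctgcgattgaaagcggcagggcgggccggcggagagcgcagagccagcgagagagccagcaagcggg
The left part, TTCAGCACC, starts 242 bases before the start site, and 7 bases separate it from the right part, GGACAGC. Searched on both strands, TTCAGCACC was in 0.371% of all 32851 promoter windows and, among the 34 subunit genes with a window, in Grm2 only. GGACAGC was in 6.56% of windows and in those of 4 subunit genes (Gria2, Glrb, Glra2 and Grm2). Both in order within 12 bases of each other were in 12 windows, or 0.0365%. These are matches of letters, and binding was not measured. Rest itself was at 196 and 166 CPM in ESC and at 64.4 and 97.6 CPM in RA-DIFF, with a genotype ratio of 0.60 in RA-DIFF that was not called.

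**Figure D3:**
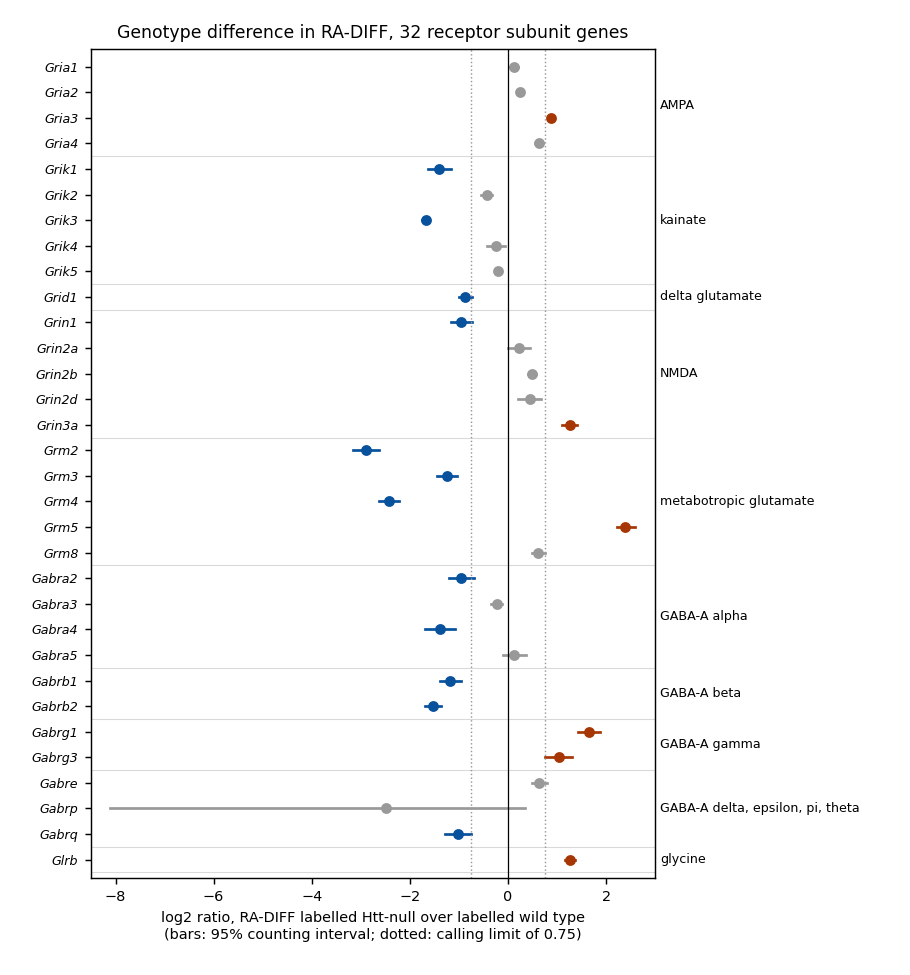
Genotype log2 ratio in RA-DIFF (Htt-null-labelled over wild-type-labelled) for 32 of the 36 receptor genes above the expression limit, grouped by family; points are ratios of 2 libraries, bars 95% counting intervals, red genes called higher, blue genes called lower, grey genes not called. Of the genes shown, 6 lie above and 12 below the limits of 0.75 with a call, from -2.89 (Grm2) to 2.39 (Grm5).

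GABA-A receptors are commonly built of alpha, beta and gamma subunits. Among the alpha genes Gabra3 and Gabra5, which prevail before birth, were at 16.3 and 13.9 CPM and at 2.92 and 3.20 CPM in RA-DIFF and were not called between the lines (-0.23 and 0.13). Gabra4 was at 3.29 and 1.26 CPM (-1.39, -1.69 to -1.09) and Gabra2, also listed as a fetal-type subunit below, at 3.6 and 1.86 CPM (-0.95, -1.21 to -0.70). Both were called lower. Gabra2 (0.565 and 0.659 CPM) and Gabra4 (1.35 and 0.858 CPM) were not called in ESC. Gabra6, a subunit of cerebellar granule cells, had 1 read in all 4 libraries together.

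The beta gene Gabrb2, the most common beta subunit of the adult brain, was at 0.231 and 0.705 CPM in ESC (1.61, 0.83 to 2.45) and at 12 and 4.15 CPM in RA-DIFF (-1.53, -1.69 to -1.36). Gabrb1 was at 0.231 and 0.092 CPM in ESC and at 5.71 and 2.53 CPM in RA-DIFF (-1.18, -1.39 to -0.96).

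The gamma genes Gabrg1 and Gabrg3 were called higher in the Htt-null-labelled RA-DIFF library. Gabrg1 was at 2.01 and 6.32 CPM (1.65, 1.43 to 1.88) and Gabrg3 at 1.58 and 3.23 CPM (1.03, 0.76 to 1.31). Per length Gabrg1 was above Gabrg3 in both RA-DIFF libraries, at 0.255 and 0.803 RPKM against 0.132 and 0.271 RPKM. In ESC Gabrg1 had 1 and 3 reads and Gabrg3 had 2 and 7.

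Of the other GABA-A genes, Gabrq was at 0.0692 and 0.276 CPM in ESC (6 and 18 reads, 1.97, 0.60 to 3.62) and at 3.49 and 1.73 CPM in RA-DIFF (-1.01, -1.28 to -0.75). Gabre was at 5.74 and 8.96 CPM in RA-DIFF and was not called (0.64). Gabrp was the one subunit gene called lower with RA in both lines, with 572 and 513 reads in ESC and 7 and 1 in RA-DIFF. Its log2 ratio was -6.69 (-8.04 to -5.67) and -9.40 (-14.90 to -7.11). Gabrd, a subunit of receptors outside synapses, and the rho genes Gabrr1, Gabrr2 and Gabrr3, known from retina, were below the expression limit, with 0 to 54 reads in a library.

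Many GABA-A genes lie in clusters, and neighbours did not always share a direction. On chromosome 5 Gabra2, Gabra4 and Gabrb1 were called lower, whereas Gabrg1 at the end of the cluster was called higher. Gabra4 and Gabrb1 start head to head: the gene models, on opposite strands, overlap over chr5:71658113-71658308, and their ratios were -1.39 and -1.18. On the X chromosome, of Gabre, Gabra3 and Gabrq, only Gabrq was called.

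**Figure D4:**
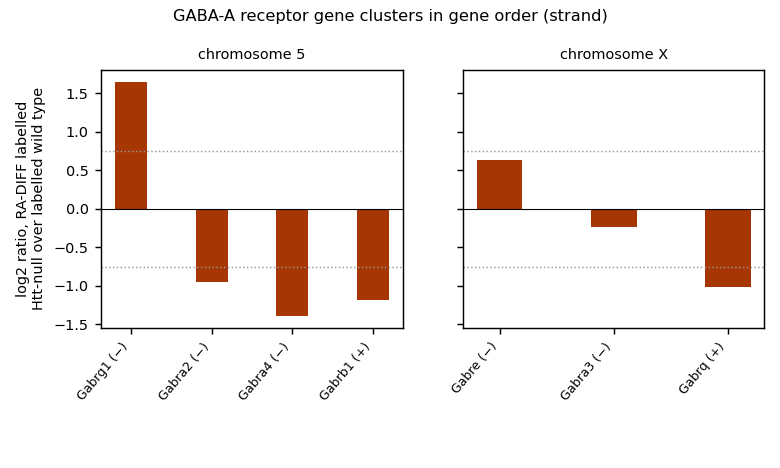
Genotype log2 ratio in RA-DIFF (Htt-null-labelled over wild-type-labelled) for GABA-A receptor genes of the clusters on chromosomes 5 and X, in gene order with the strand in brackets; bars are ratios of 2 libraries and dotted lines the limits of 0.75. Gabrg1 (1.65) and its 3 neighbours on chromosome 5 lie on opposite sides of 0.

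Glycine receptors carry inhibition in spinal cord and brainstem, and Glrb anchors them to the scaffold gephyrin. Glrb was the one glycine receptor gene above the expression limit. It was at 4.43 and 4.08 CPM in ESC and at 10.3 and 24.8 CPM in RA-DIFF, called higher by 1.27 (1.17 to 1.37) in the library labelled Htt-null. The alpha genes Glra2 and Glra1 had the opposite sign there. Glra2, the fetal alpha subunit, had 221 and 73 reads (-1.41, -1.81 to -1.02) and Glra1, the adult one, had 150 and 56 reads (-1.23, -1.70 to -0.78), both under the expression limit. Glra4 had its most reads in ESC (45 and 33, against 16 and 17 in RA-DIFF), and Glra3 had at most 2 reads in a library.

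Over all receptor genes, 6 were called higher and 14 were called lower in the Htt-null-labelled RA-DIFF library (16.7% and 38.9% of 36), where 11.5% and 8.48% of all genes tested were called. The median log2 ratio of the 46 genes with more than 3 reads in either library was -0.49, beside 0.01 over protein-coding genes, and that of the 36 genes above the expression limit was -0.23. With a dispersion of 0.1, 2 and 8 genes were called, where 5.26% and 3.4% of all genes were. Grm5 and Gabrg1 held upward, and Grik1, Grik3, Grm2, Grm4, Gabra4 and Gabrb2 were among those that held downward.

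Markers of cell types moved with this comparison, in which 11.5% of all genes tested were called higher and 8.48% lower. Of the 12 neuron markers, 0 were called higher and 10 lower, with a median log2 ratio of -1.25 and summed levels of 3022 and 1393 CPM. Of 10 fibroblast and mesenchyme markers, 9 were called higher and 0 lower (median 2.05, 617 and 2407 CPM), and of 7 glia markers, 5 of them above the expression limit, 2 were higher and 1 lower (183 and 333 CPM). No marker of these lists was at 0 in RA-DIFF. Of the 8 pluripotency markers 0 were higher and 7 lower (median -2.87, 55.6 and 13.4 CPM). Of 7 neural progenitor markers 0 were higher and 3 lower, with summed levels of 2747 and 2726 CPM. In such bulk libraries fewer neurons and less receptor RNA per neuron cannot be told apart. The part that cell composition has in the receptor ratios was not tested.

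Subunits were also listed by developmental use. Of 8 fetal-type subunits (such as Grin2b, Grin2d, Gabra3, Gabra5 and Glra2), 7 were above the expression limit. In the RA-DIFF genotype comparison 1 was called higher (Grin3a) and 1 lower (Gabra2), near the background of 11.5% and 8.48%. The median of the 8 was 0.08. Their summed level was 93.2 and 104 CPM in RA-DIFF. Of 6 mature-type subunits (such as Grin2a, Grin2c, Gabrd and Glra1), 2 were above the expression limit and 1 of these was lower. Their summed level was 9.78 and 5.78 CPM.

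Genes for the partners of the receptors were compared in the same libraries. Of 41 excitatory partners, 38 of them above the expression limit, 4 were higher and 15 lower (median -0.53). Of 17 inhibitory partners, all above the expression limit, 2 were higher and 3 lower (median -0.25). Of all genes tested, 11.5% were called higher and 8.48% lower. The difference of the partner counts from these shares was not tested. Slc17a6, the vesicular glutamate transporter of many brainstem, midbrain and spinal neurons, had no read in ESC and 3718 and 474 reads in RA-DIFF (-2.78). The scaffold gene Shank1 had 3782 and 1425 reads (-1.22), Lhfpl4, which gathers GABA-A receptors at synapses, 9556 and 4250 reads (-0.98), and the chloride exporter Slc12a5 3755 and 1565 reads (-1.08). The glial glutamate transporters went apart, Slc1a2 with 16508 and 5140 reads (-1.5) and Slc1a3 with 26752 and 52858 reads (1.17). The GABA transporter gene Slc6a11 was higher, with 2027 and 5157 reads (1.53). Dlg4, Gphn and Gad1, for PSD-95, gephyrin and a GABA-synthesizing enzyme, had ratios of -0.09, -0.31 and -0.25 and were not called.

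In ESC, where most receptor genes had few reads, 7 of the 36 genes were higher and 4 were lower by the calls in the Htt-null line (19.4% and 11.1%, against 4.51% and 2.98% of all genes tested). The expression limit is on the average of the 4 libraries, so genes with few ESC reads passed it through their RA-DIFF reads. Ratios of such low counts pass 0.75 easily, so the excess over the background cannot be read as a result about these genes. Among the calls not yet given were Gria1, with 3 and 19 reads (3.01, 1.31 to 5.47), and Grin2b, with 103 and 46 reads (-0.75, -1.29 to -0.24). With a dispersion of 0.1 the calls were 3 and 2 (0.981% and 0.645% of all genes). Of the 11 calls, Gria1, Gabrb2 and Grin3a were among the 5 that held there, and all 5 had fewer than 50 reads in the higher ESC library, while those of Grin1, Grin2b, Grm2, Grm4 and Gabrq did not hold. The median log2 ratio of 42 genes was 0.00. The ESC lines also differed along chromosomes: the median genotype ratio of all genes tested was 0.22 on chromosome 11 and 0.36 on chromosome 8, and between -0.12 and 0.06 on the other chromosomes. In RA-DIFF, by the labels, it was 0.01 on chromosome 11 and -0.22 on chromosome 8, and between -0.09 and 0.09 on the others. With the RA-DIFF labels exchanged these RA-DIFF medians turn their sign. Gria1 and Gabrb2 lie on chromosome 11, and the part of its ESC offset in their ESC ratios was not tested.

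**Figure D5:**
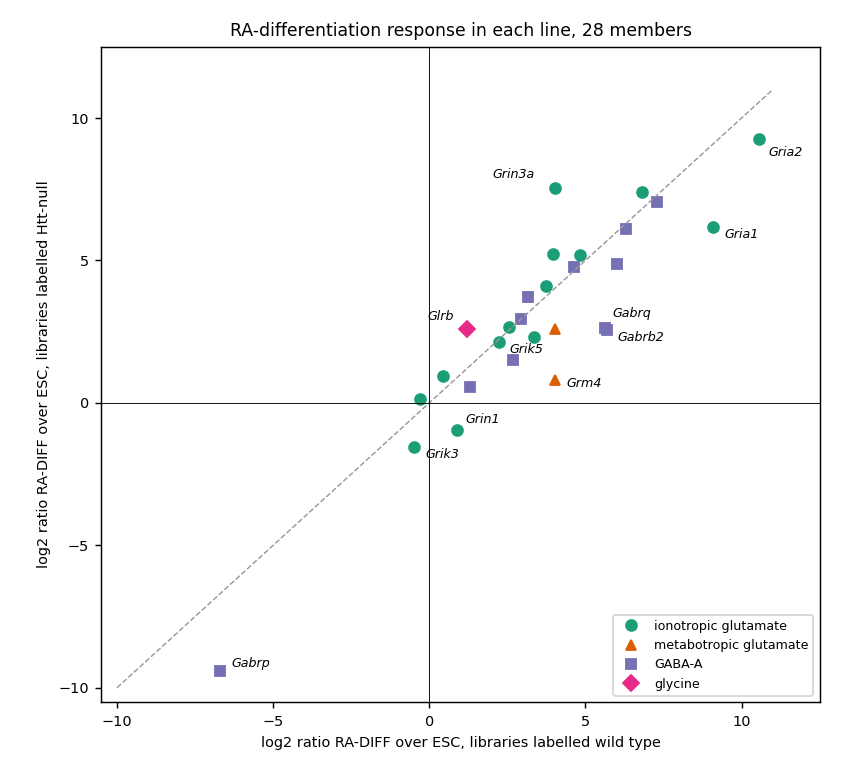
Log2 ratio of RA-DIFF over ESC in the libraries labelled wild type (horizontal) and labelled Htt-null (vertical) for 28 receptor genes above the expression limit; the dashed line marks equal ratios, and genes with 0 reads in an ESC library are left out. Most genes lie in the upper right; Grin1 (0.88 and -0.96) lies on opposite sides of 0 by line, and Gabrp (-6.69 and -9.40) is low in both.

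By the labels, the RA response differed in size between the lines for several genes, and these differences were not tested. Grin3a rose by 4.04 (3.48 to 4.68) in the libraries labelled wild type and by 7.56 (6.24 to 9.47) in those labelled Htt-null. Glrb rose by 1.21 and 2.60. In the other direction Grm4 rose by 4.03 (3.69 to 4.39) and 0.80 (0.46 to 1.16), Gabrb2 by 5.69 and 2.56, and Gabrq by 5.63 and 2.64. Gabre rose by 2.93 and 2.96 and Gabra3 by 6.29 and 6.11. With the RA-DIFF labels exchanged the order turned for Glrb (2.48 and 1.33), Grm4 (1.60 and 3.23) and Gabra3 (6.05 and 6.34), and Gabre was at 3.58 and 2.32. Gabrb2 was then nearly level between the lines (4.16 and 4.08), while Grin3a (5.30 and 6.31) and Gabrq (4.61 and 3.65) kept their order with a smaller gap.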

How the data were processed

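The authors made strand-specific poly(A) libraries, aligned 50 bp paired-end reads to GRCm38.p4 with TopHat2 2.0.14 guided by GENCODE, counted them per gene with HTSeq 0.6.1 in the intersection-nonempty mode and deposited raw counts. For HTSeq their methods name the mode alone and otherwise defaults, so no strand option is named. The deposited small RNA counts were not used. No per-sample column was left without a sample.

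TMM factors over the 4 RNA-seq libraries and exact tests were computed with edgeR 4.0.16 in R 4.3.3 on all genes. The spread within a condition could not be estimated from single libraries, so a dispersion of 0.01 was assumed, and neither the quasi-likelihood test nor DESeq2 1.42.0 was used as a test. A prior count of 0.125 was used for log2 ratios. Calling was tried on simulated counts drawn with the same dispersion of 0.01, so that trial cannot show how calls behave under the true spread between cultures. Counting intervals were Clopper-Pearson intervals at 95%, and a gene at 0 was set at a floor of 3 reads for bounds. RPKM used exonic length in GENCODE vM21, where all 50 genes were found. Gene coordinates are those given in the count table, and 46 of the 50 starts lay within 1000 bases of the start in GENCODE vM21. Promoters were from RefSeq (GRCm38.p6). Tables and figures used Python 3.11.15, pandas 2.3.3, scipy 1.17.1 and matplotlib 3.10.9.

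The members and the lists of partners, subunit types and markers were chosen with earlier results of these data known. Some genes of these lists are not reported here; counts, medians and sums include them. For the others, values in every library were given for members called between genotypes and for the 3 highest per length in each library, and values in RA-DIFF for partners called there whose larger count was 1000 reads or more. Grin2a, Grin2d, Gabre, Gabra3, Gabra5 and the genes below the expression limit were named to account for further members. Dlg4, Gphn, Gad1, Neto1, Neto2, Cbln2 and Cbln4 were named after their values were seen. Alternatives were a dispersion of 0.1, library size alone, DESeq2 size factors, no expression limit, a log2 CPM limit of 1, a prior count of 2, and exchanged RA-DIFF labels; a limit on the mean of the 4 log2 CPM values was added after seeing the data.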

Additional observations from a re-analysis of the deposited data

Results flagged for a closer look

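The genotype difference had opposite signs in ESC and in RA-DIFF, with a call at both stages, for 5 subunit genes given here, and the difference between the stages was not tested. The log2 ratios of Htt-null over wild type were 0.89 in ESC and -0.95 in RA-DIFF for Grin1, 0.79 and -2.43 for Grm4, 1.61 and -1.53 for Gabrb2, and 1.97 and -1.01 for Gabrq. Grin3a went the other way, with -2.26 in ESC and 1.26 in RA-DIFF. With the RA-DIFF labels exchanged, these signs would be the same at both stages for all 5.

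The RA response had opposite signs by line for Grin1, also untested, at 0.88 in the libraries labelled wild type and -0.96 in those labelled Htt-null. With the RA-DIFF labels exchanged these ratios were -0.07 and -0.01.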

How the results depend on the processing

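No paired analysis was possible because the groups compared share fewer than 2 replicate numbers, and with 1 library per condition no replicate could be left out. A model of stage and line without their interaction, which would leave 1 residual degree of freedom, was not run. Library size alone and DESeq2 size factors kept all calls of the genes named except those of Grin2b in ESC and Grm4 with RA in the line labelled Htt-null, which library size alone placed under the limit; the ESC median was 0.06 with library size alone and -0.02 with DESeq2 size factors, against 0.00. With a dispersion of 0.1, 3 genes were higher and 2 lower in ESC, 2 higher and 8 lower in RA-DIFF, and 2 lower with RA in the line labelled Htt-null. A limit on the mean log2 CPM left 3 higher and 9 lower in RA-DIFF, and with RA 21 higher and 0 lower in the line labelled wild type and 19 higher in the other; fewer genes were tested there. A log2 CPM limit of 1 left 5 higher and 4 lower in ESC, 5 higher and 10 lower in RA-DIFF, and 24 and 23 higher with RA by line, again with fewer genes tested. A prior count of 2 placed Grin2b in ESC (-0.73) under the limit. Without an expression limit 6 and 8 genes were lower with RA by line. Over the 36 genes above the limit the RA-DIFF median was -0.23.

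Exchanging the RA-DIFF labels gave 14 higher and 6 lower in RA-DIFF with a median of 0.49, by construction. The ratios became -0.88 for Gria3, 1.40 for Grik1, 1.68 for Grik3, 0.87 for Grid1, 0.95 for Grin1, -1.26 for Grin3a, 2.89 for Grm2, 1.24 for Grm3, 2.43 for Grm4, -2.39 for Grm5, 0.95 for Gabra2, 1.39 for Gabra4, 1.18 for Gabrb1, 1.53 for Gabrb2, -1.65 for Gabrg1, -1.03 for Gabrg3, 1.01 for Gabrq and -1.27 for Glrb. With RA, 2 genes were then lower and the median was 3.29 for wild-type ESC, with Grin1 at -0.07 and Gabra4 at -0.10. For Htt-null ESC 1 gene was lower and the median was 3.61, with Grik3 at 0.14.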
